A study of Mus musculus with 6 samples.

Results

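The BCL2 family decides whether a stressed cell keeps its mitochondria intact or dies by apoptosis. Effector proteins such as BAK form pores in the outer mitochondrial membrane and release cytochrome c. Pro-survival proteins such as BCL2 and MCL1 hold the effectors in check, and BH3-only proteins such as BIM, PUMA and BID relieve that restraint. Loss of motor neurons in mice with mutant SOD1 has long been studied through this family. The genes described here are Bak1 and Bax (effectors), Bid, Bad, Bbc3 (PUMA) and Bcl2l11 (BIM) (BH3-only), and Bcl2, Bcl2l1 (BCL-X), Bcl2l2 (BCL-W) and Mcl1 (pro-survival), 10 genes in all. They were chosen by name, and every probe set that the platform annotation gave to exactly 1 of them was taken. That rule found 32 probe sets for 9 of the 10 genes. For Bax the annotation used here names no probe set, so Bax was not analysed.

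RNA came from brainstem motor neurons of wild type mice (WT) and of SOD1 mice, with 3 arrays per genotype and 6 in all. Which SOD1 change the mice carried, their age and their strain are not given in the labels, nor is the way the neurons were collected. The labels number the RNA samples but name no animals, so a p-value here reflects how far these samples scatter, which may be technical. Values are log2 signals after quantile normalisation and addition of 16, and changes are SOD1 minus WT, which the added 16 makes smaller for low probe sets.

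Facts of the arrays bear on what follows. Transcripts that define motor neurons were present on every array, with the highest Isl1 probe set between 14.95 and 15.42, the highest Prph probe set between 15.80 and 16.27, Slc18a3 between 12.06 and 13.66 and Chat between 8.40 and 9.78. Counts of markers are given with the highest probe set standing for each gene. Of 10 motor neuron markers 0 passed the test and 7 had a negative estimate, with 4 lower at an unadjusted p under 0.05 (Ache, Slc18a3, Nefm and Nefh). Their summed signal was 574012 to 632352 in WT and 508672 to 568026 in SOD1, which do not overlap. Markers of other cells differed between the groups. Of 16 microglial and myeloid markers tested, 6 rose and all 16 had a positive estimate, and their summed signal was 11184 to 48424 in WT and 123798 to 238940 in SOD1. Of 10 astrocyte markers 2 rose, while 8 had a positive estimate and 2 a negative one (summed signal 204059 to 212061 in WT, 243734 to 249888 in SOD1). Of 9 oligodendrocyte markers 0 passed the test and all 9 had a positive estimate (191142 to 219872 and 249636 to 268346). Of 12 endothelial and mural markers 1 fell, Acta2, and all 12 had a negative estimate (32205 to 72083 and 7889 to 23753). The highest probe set of Flt1 did not pass the test, while another probe set of that gene fell. No marker tested in these lists was below the background level on all 6 arrays. Since these are bulk samples, fewer cells of a type and less RNA per cell cannot be told apart. Xist, which is expressed from the inactive X chromosome of females, averaged 12.83 and 12.91 on SOD1 replicates 1 and 2 and 5.71 to 7.07 on the other 4 arrays, so sex may be partly confounded with genotype. The part of other cells and of sex in the values below was not tested, except where a fit with a term for Xist is given.

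No BCL2 family probe set passed the test. Of the 32 probe sets, 20 lay above the filter on low signal (the 40th percentile of mean log2 signal) and 12 below it, and each of the 9 genes had at least 1 above it. Of the 20, 0 had a limma adjusted p under 0.05, against 0.185% of all 27022 probe sets kept. At an unadjusted p under 0.05, 1 of the 20 was called, a probe set of Mcl1 that was higher in SOD1. That is 5% of them, against 14.7% of all probe sets called either way and 7.1% called higher. The WT and SOD1 values did not overlap for 2 of the 20 (10%), 1 of Bcl2l2 that was higher and 1 of Bid that was lower, against 20.3% of all probe sets. Estimates were positive for 9 and negative for 11, with a median of -0.02 against -0.01 over all probe sets. These shares do not exceed those of all probe sets, and adjusted p-values for the 20 ran from 0.281 to 0.979.

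**Figure D1:**
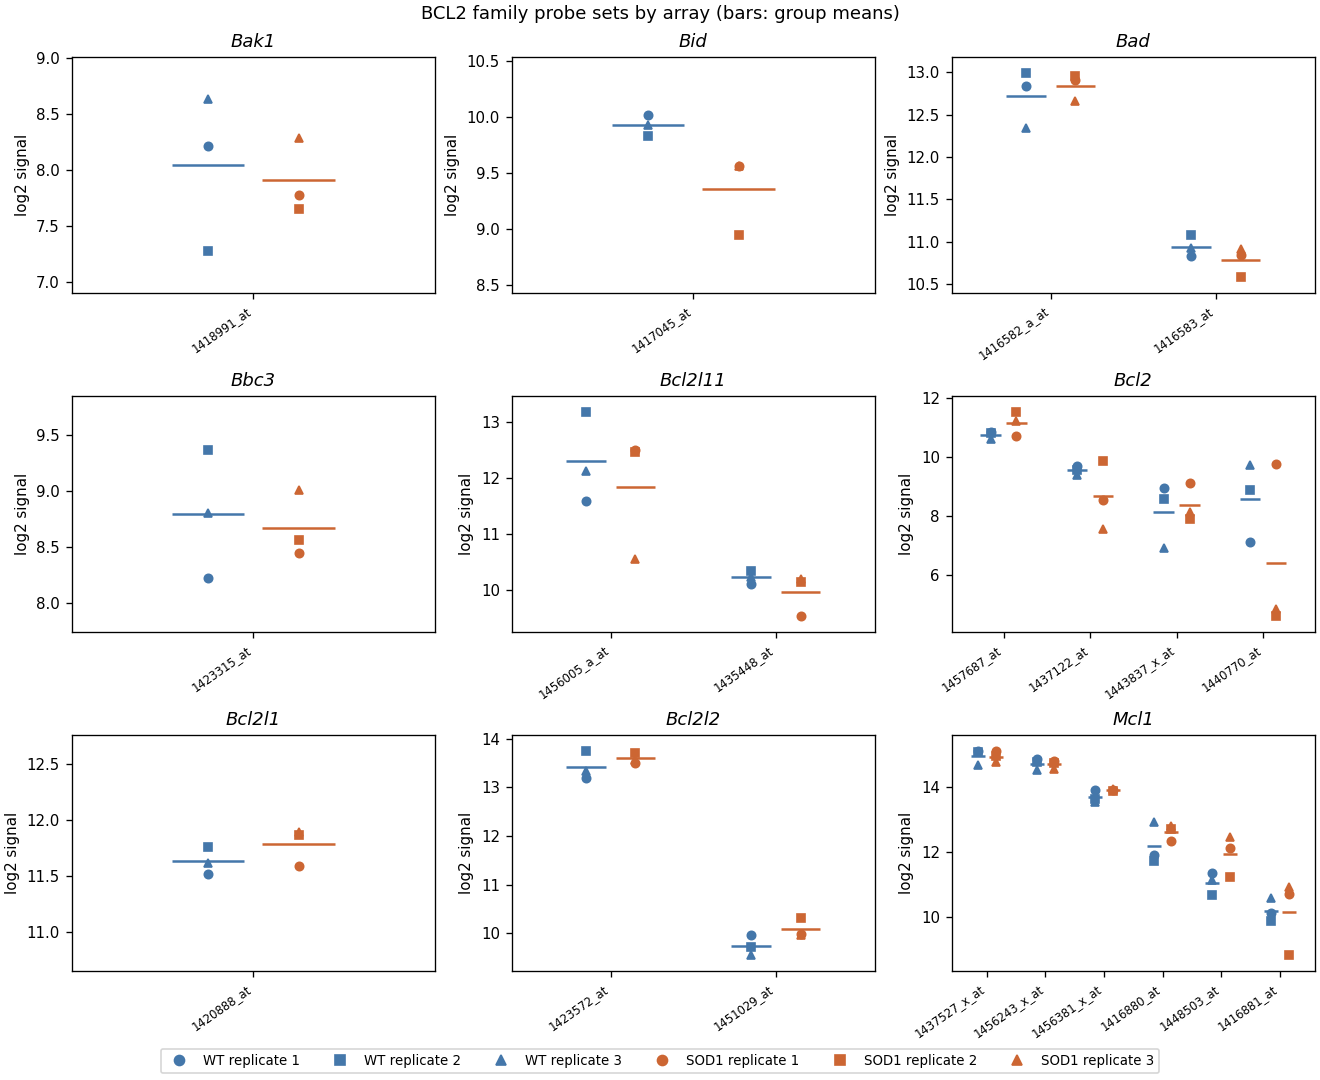
Log2 signal (y axes, a separate range per gene) of the 20 BCL2 family probe sets kept, by probe set, with WT arrays in blue and SOD1 arrays in orange, a marker shape per replicate and a bar at each group mean. The groups overlap for every probe set except 1417045_at of Bid, lower in SOD1, and 1451029_at of Bcl2l2, higher in SOD1.

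Bcl2l11 and Bbc3, both BH3-only genes whose transcription FOXO factors are known to drive, each had 1 promoter window with a FOXO core. In RefSeq promoter windows of GRCm38.p6 (250 bases before to 50 after a start site), both strands were searched for the FOXO core GTAAACA, which overlapped no match of the other motifs searched. It was found in 2 of 16 windows of the 10 genes, against 3.65% of 32851 windows of all genes. The other windows of Bcl2l11 and Bbc3 did not hold it. The 2 matches are shown with the core in capitals, and that of Bbc3 reads on the opposite strand.

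Bcl2l11, chr2:128125788-128125857, plus strand, core 227 bases before the start site: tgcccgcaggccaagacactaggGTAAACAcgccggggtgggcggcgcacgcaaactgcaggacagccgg
Bbc3, chr7:16310054-16310140, plus strand, core 167 bases before the start site: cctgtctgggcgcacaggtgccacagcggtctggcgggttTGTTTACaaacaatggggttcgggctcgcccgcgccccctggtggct

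Some genes have several windows, and those of Bbc3 overlap in part. The p53 half-site was found in 1 of the 16, that of Bax, against 8.36% of all windows. CACGTG, the E-box (7.15% of all windows), was found in 2 of the 16, those of Bax and 1 of Bbc3. TATAAA (13.6% of all windows), TGANTCA of AP-1 (7.81%) and TGACGTCA of CREB (1.79%) were found in 0 of 16. The 16 windows had a median G and C content of 65.7%, against 52.7% over all windows, and a median of 24.5 CpG dinucleotides against 7. A match in these letters does not show that a factor binds there.

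The effector gene Bak1, whose protein forms mitochondrial pores, did not differ beyond the spread between arrays. Its probe set 1418991_at read 8.22, 7.28 and 8.63 on WT replicates 1 to 3 and 7.78, 7.66 and 8.29 on SOD1 replicates 1 to 3. The WT values enclose all the SOD1 values. The change was -0.14 ± 0.56 (SE, n = 3 per group, limma adjusted p = 0.937), with a 95% confidence interval from 0.386-fold to 2.15-fold. The signal was low, since 1 WT array was at the background level (for each array, the 95th percentile of 27 controls for bacterial genes). The second Bak1 probe set, 1425716_s_at, was at background on all 6 arrays.

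Bid, the BH3-only protein that caspase-8 cleaves to link death receptors to mitochondria, had the lowest estimate of the BH3-only genes. Probe set 1417045_at read 10.02, 9.83 and 9.93 in WT and 9.56, 8.95 and 9.56 in SOD1. All 3 SOD1 arrays lay below all 3 WT arrays, as they do for 9.81% of all probe sets. The group means were 9.93 ± 0.095 and 9.35 ± 0.35 (SD, n = 3), and the change of -0.57 ± 0.35 did not pass the test (limma adjusted p = 0.484). The interval reached from 0.395-fold to 1.15-fold. The other 2 Bid probe sets lay below the filter and were above background on 1 WT and 1 SOD1 array each.

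Bad, a BH3-only protein held inactive by phosphorylation under survival signalling, changed by less than the standard error in both of its probe sets. Its 1416582_a_at read 12.84, 13.00 and 12.35 in WT against 12.92, 12.95 and 12.66 in SOD1, and the change was 0.12 ± 0.23 (limma adjusted p = 0.850). Its 1416583_at read 10.83, 11.07 and 10.93 against 10.85, 10.58 and 10.91, with a change of -0.16 ± 0.28 (limma adjusted p = 0.826). The groups overlapped in both, and the intervals ran from 0.764-fold to 1.55-fold and from 0.586-fold to 1.36-fold. Averaged over both probe sets the change was -0.02 ± 0.21.

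Bbc3, the p53 and FOXO target PUMA, had a single probe set, 1423315_at. It read 8.22, 9.36 and 8.80 in WT and 8.44, 8.56 and 9.01 in SOD1, all above background. The SOD1 values lie inside the WT range, and the change was -0.13 ± 0.46 (limma adjusted p = 0.926). An interval from 0.456-fold to 1.84-fold leaves room for a sizeable change in either direction.

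Bcl2l11, which encodes BIM, was read above the filter by 2 probe sets. For 1456005_a_at the values were 11.59, 13.18 and 12.13 in WT and 12.50, 12.46 and 10.55 in SOD1. SOD1 replicate 3 was the lowest of the 6 arrays by more than 1 log2 unit and the other SOD1 arrays lay within the WT range. The change was -0.46 ± 0.52 (limma adjusted p = 0.721), and leaving out SOD1 replicate 3 turned it to 0.18. For 1435448_at the values were 10.10, 10.33 and 10.23 in WT and 9.53, 10.15 and 10.19 in SOD1, where SOD1 replicate 1 was the low array. That change was -0.26 ± 0.33 (limma adjusted p = 0.749), and leaving out SOD1 replicate 1 brought it to -0.05. The other 3 Bcl2l11 probe sets lay below the filter, with estimates from 0.32 to 0.78. Of these, 1435449_at was above background on 1 WT and 3 SOD1 arrays, 1456006_at on 1 of each, and 1426334_a_at on 1 SOD1 array only. Averaged over all 5, the change was 0.21 ± 0.44 (limma adjusted p = 0.850), opposite in sign to those above the filter.

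The pro-survival gene Bcl2 had probe sets that differed in sign. The one with the highest signal, 1457687_at, read 10.87, 10.83 and 10.61 in WT and 10.71, 11.54 and 11.22 in SOD1. Only SOD1 replicate 1 lay within the WT range, and the change was 0.39 ± 0.30 (limma adjusted p = 0.590). In contrast, 1437122_at read 9.71, 9.56 and 9.41 in WT, a narrow range, and 8.56, 9.88 and 7.58 in SOD1, a wide one. SOD1 replicate 2 was the highest of all 6 arrays there and SOD1 replicate 3 the lowest. The change of -0.89 ± 0.54 (limma adjusted p = 0.483) became -1.51 without SOD1 replicate 2 and -0.33 without SOD1 replicate 3.

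Probe set 1440770_at gave the largest estimate of the 20, -2.18 ± 1.25 (limma adjusted p = 0.448). It read 7.14, 8.90 and 9.72 in WT and 9.76, 4.61 and 4.84 in SOD1, so the SOD1 arrays included both the highest value and the lowest. With 1 WT and 2 SOD1 arrays at background, its interval ran from 0.033-fold to 1.47-fold. The last above the filter, 1443837_x_at, read 8.95, 8.60 and 6.90 in WT and 9.11, 7.89 and 8.15 in SOD1 (0.24 ± 0.63, limma adjusted p = 0.897). The remaining Bcl2 probe set, 1422938_at, lay below the filter (0.84 ± 0.80, limma adjusted p = 0.761). Averaged over all 5 Bcl2 probe sets, the change was -0.32 ± 0.44 (limma adjusted p = 0.770). Whether these probe sets read different transcript forms is not given in the annotation used here.

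Bcl2l1, the source of the survival protein BCL-XL, was among the steadiest members. Its 1420888_at read 11.52, 11.76 and 11.62 in WT and 11.59, 11.86 and 11.89 in SOD1. The groups overlap, and the change was 0.15 ± 0.24 (limma adjusted p = 0.812), from 0.766-fold to 1.61-fold. The other 3 Bcl2l1 probe sets lay below the filter, and 1426050_at was at background on all 6 arrays.

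Bcl2l2, which encodes the neuronal survival protein BCL-W, had positive estimates in all 4 of its probe sets. Of these, 1430453_a_at (0.50 ± 0.73) lay below the filter and was at background on all 6 arrays, so its sign carries little weight. The highest, 1423572_at, read 13.19, 13.74 and 13.33 in WT and 13.51, 13.71 and 13.57 in SOD1, a change of 0.17 ± 0.20 (limma adjusted p = 0.721). The second, 1451029_at, read 9.96, 9.71 and 9.55 in WT and 9.99, 10.31 and 9.97 in SOD1. There all SOD1 arrays lay above all WT arrays, by a narrow margin, and 10.5% of all probe sets also had groups that did not overlap in this direction. The change was 0.35 ± 0.33 (limma adjusted p = 0.661).

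Below the filter, 1430454_x_at of Bcl2l2 read 8.09, 5.26 and 4.86 in WT and 8.69, 7.69 and 8.73 in SOD1. WT replicate 1 lay within the SOD1 range and the other WT arrays were at background. Fitted without the filter its change was 2.30 ± 0.89 (limma unadjusted p = 0.0237, adjusted p = 0.346), and its suffix marks probes that may also match other transcripts. The mean over the 4 Bcl2l2 probe sets changed by 0.83 ± 0.37 (limma unadjusted p = 0.0495, adjusted p = 0.332). That mean takes in the probe sets below the filter, while those above it were at 0.17 and 0.35.

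Mcl1, a short-lived survival protein on which neurons depend, was read by 6 probe sets, all above the filter and above background on all 6 arrays. The 2 with the highest signal varied little between arrays, but their _x_at suffix marks probes that may also match other transcripts. Probe set 1437527_x_at read 15.11, 15.09 and 14.69 in WT and 15.11, 14.95 and 14.78 in SOD1, and 1456243_x_at read 14.87, 14.77 and 14.53 against 14.81, 14.75 and 14.57. Both changed by -0.02 (SE 0.16 and 0.15, limma adjusted p = 0.971 and 0.968), with intervals of 0.779-fold to 1.25-fold and 0.790-fold to 1.23-fold. With median centring in place of quantile normalisation the estimates were 0.18 and 0.15, and with no further scaling 0.07 and 0.05.

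Probe set 1448503_at of Mcl1 stood apart from these. It read 11.36, 10.67 and 11.13 in WT and 12.11, 11.22 and 12.45 in SOD1. SOD1 replicates 1 and 3 were above every WT array, and SOD1 replicate 2 was below WT replicate 1. The change was 0.88 ± 0.35, 1.84-fold (95% interval 1.08-fold to 3.13-fold), with an unadjusted p of 0.0289 and a limma adjusted p of 0.281. It was positive in every setting tried, from 0.61 without SOD1 replicate 3 to 1.30 with a term for Xist.

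The other Mcl1 probe sets had smaller estimates. The change was 0.44 ± 0.32 for 1416880_at, where WT replicate 3 (12.93) was the highest array and the other WT arrays (11.90 and 11.72) were the lowest. Without WT replicate 3 it was 0.81 (limma unadjusted p = 0.0109, adjusted p = 0.219). For 1456381_x_at, whose suffix carries the same limit, it was 0.21 ± 0.17, with SOD1 values from 13.87 to 13.93 against 13.53 to 13.91 in WT. For 1416881_at it was -0.04 ± 0.51, with SOD1 replicate 2 (8.81) below the 5 other arrays. Averaged over the 6 probe sets the change was 0.24 ± 0.20 (limma adjusted p = 0.598).

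**Figure D2:**
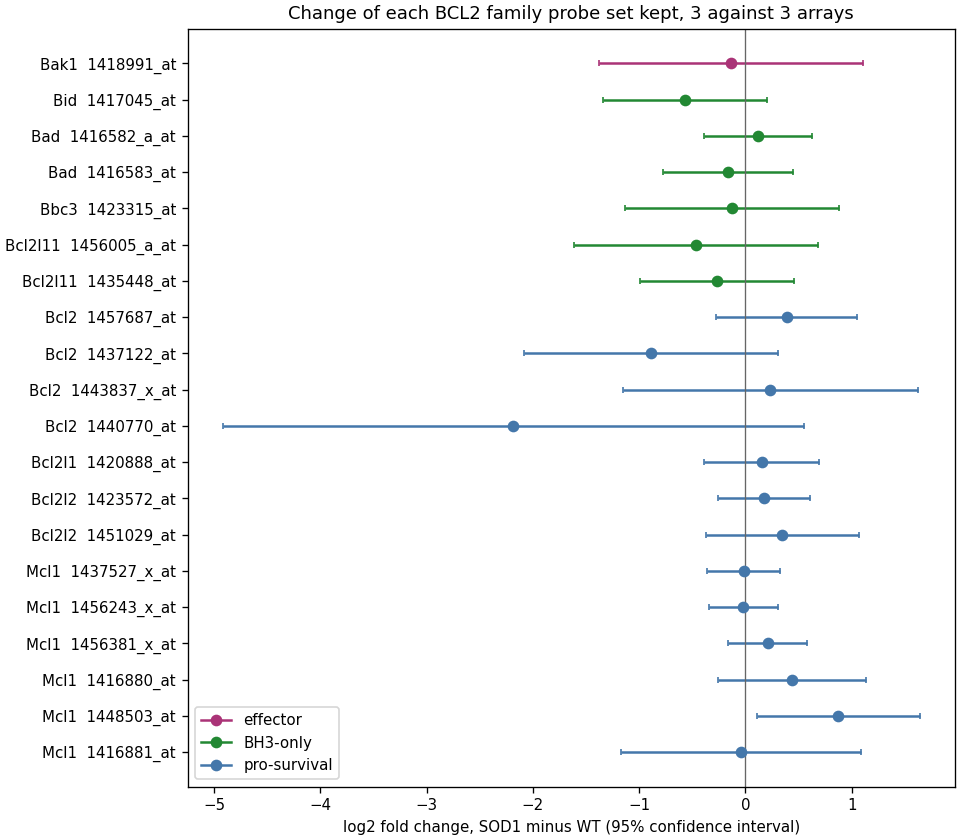
Change of each of the 20 BCL2 family probe sets kept (x axis, log2 fold change, SOD1 minus WT; points, limma estimates; bars, 95% confidence intervals; 3 arrays per group), coloured by role. The interval of 1448503_at of Mcl1 lies above 0 (0.11 to 1.65) and those of the other 19 include 0.

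By role, with the highest probe set standing for each gene, 3 of the 4 BH3-only genes had a negative estimate (median -0.29) and 3 of the 4 pro-survival genes a positive one (median 0.16). Over all 13123 named genes, 49% had a positive estimate and the median was -0.01. None of the 9 genes had an unadjusted p under 0.05 in that count, against 16.5% of all named genes, and the 2 medians come from 4 genes each, so no difference between the roles is drawn from them.

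Processing moved some estimates but made no call. Across 20 other settings, 0 BCL2 family probe sets passed the test, and the lowest adjusted p was 0.192 (limma, Bcl2 probe set 1437122_at with a term for Xist). That term leaves the comparison resting largely on SOD1 replicate 3, the SOD1 array with low Xist. With it, Bcl2 1437122_at was at -1.81, Bcl2l11 1456005_a_at at -1.49 and Mcl1 1448503_at at 1.30, each at an unadjusted p under 0.05 (limma adjusted p = 0.192, 0.216 and 0.206). In that fit 5 of the 20 turned sign, Bak1 1418991_at (0.22), Bad 1416582_a_at (-0.07), Bbc3 1423315_at (0.18), Bcl2 1443837_x_at (-0.11) and Mcl1 1416881_at (0.65). The 3 of 20 at an unadjusted p under 0.05 compare with 14.5% of all probe sets in that fit.

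**Figure D3:**
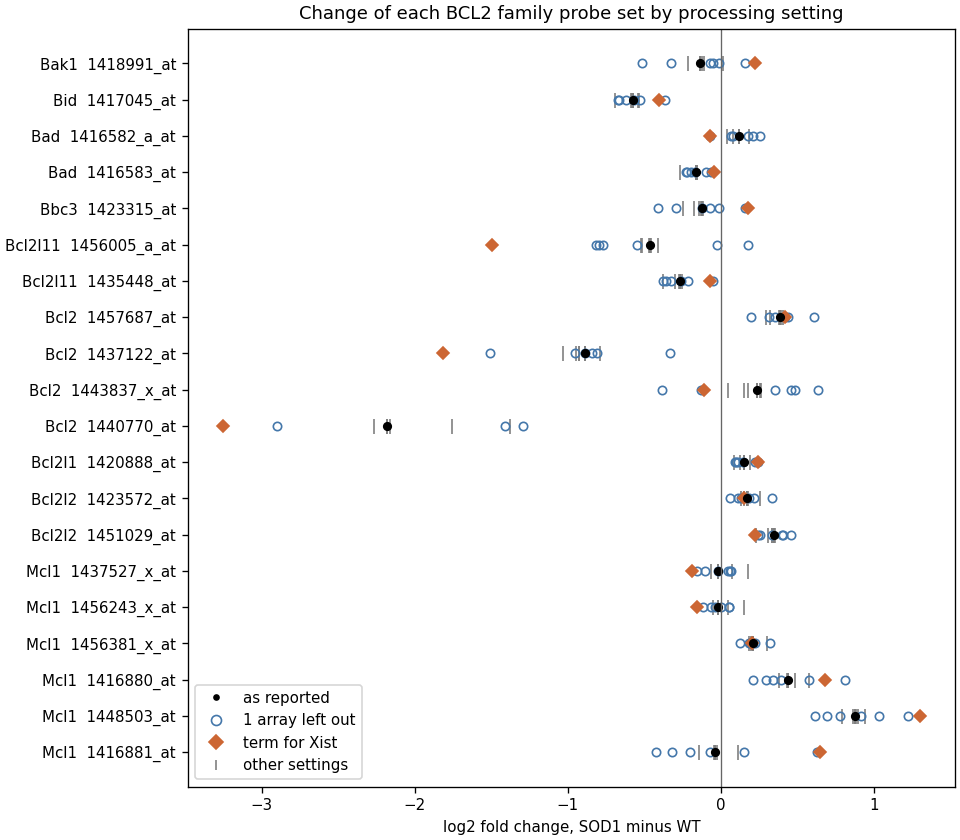
Change of each of the 20 BCL2 family probe sets (x axis, log2 fold change, SOD1 minus WT) as reported (black), with 1 array left out (open circles), with a term for Xist (orange diamonds) and in the other settings (grey ticks). The estimates of Bcl2 1437122_at range from -1.81 to -0.33 and those of Mcl1 1448503_at from 0.61 to 1.30.

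The rest of the cell death pathway was read through 8 lists of other genes, with the highest probe set standing for each gene. Of 129 such genes, 100 could be tested, and 0 passed (limma, adjusted p under 0.05, lowest 0.155) against 0.274% of all named genes. At an unadjusted p under 0.05, 9 were higher and 5 lower in SOD1, against 7.67% and 8.87% of all named genes. The groups did not overlap for 10 that were higher and 9 that were lower, against 10.7% and 11.2% of all named genes. The median change was -0.01, the same as over all named genes, and 49 estimates were positive and 51 negative. With no further scaling the unadjusted counts were 5 higher and 5 lower, and with median centring 10 and 3. Without SOD1 replicate 3 they were 1 and 2.

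Downstream of the mitochondria, 3 of 11 genes of the apoptosome and of mitochondrial release were higher at an unadjusted p under 0.05. The groups of these 3 did not overlap. Over all named genes, 7.67% were higher at that p and 10.7% had groups that did not overlap in that direction. Cycs, the cytochrome c gene, read 16.36, 16.17 and 16.34 in WT and 16.49, 16.56 and 16.70 in SOD1 (0.29 ± 0.10, limma adjusted p = 0.213), and with median centring its change was 0.56. Apaf1, the scaffold that cytochrome c activates, read 9.87, 9.74 and 9.51 against 10.75, 10.37 and 10.26 (0.75 ± 0.32, limma adjusted p = 0.315). Diablo, which relieves caspases of their inhibitors, changed by 0.56 ± 0.25 and Aifm1, a mitochondrial flavoprotein, by 0.27 ± 0.24. None of the 11 passed the test over all probe sets.

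Caspases had a median change of 0.27 over 7 genes, with 6 positive estimates and 0 past either threshold. The largest estimate was that of Casp1, the inflammatory caspase, which read 7.61, 7.26 and 5.32 in WT and 8.37, 7.81 and 8.60 in SOD1 (1.53 ± 0.73, limma adjusted p = 0.364), with 2 WT arrays at background. Without WT replicate 3 it was 0.82. Casp12 was at 0.66 ± 0.52 (0.08 without SOD1 replicate 2), Casp14 at 0.27 ± 0.33 and Casp6 at 0.62 ± 0.78 (-0.18 without SOD1 replicate 3). Casp9, the initiator that APAF1 recruits, was at -0.18 ± 0.26.

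Inhibitors of apoptosis had a median of 0.39 over 7 genes. Naip2, which senses bacterial proteins in macrophages, read 7.23, 5.01 and 7.34 in WT and 8.02, 8.49 and 8.75 in SOD1, where all SOD1 arrays lay above all WT arrays. Its change was 1.90 ± 0.75 (limma adjusted p = 0.277), or 1.13 without WT replicate 2, with 2 WT arrays at background. Xiap, the direct caspase inhibitor, was at 0.40 ± 0.27, Birc2 at 0.33 ± 0.23 and Naip6 at 0.79 ± 0.60. Casp1 and Naip2 are also known from macrophages, and the summed signal of microglial markers given above moved in the same direction, whose part in these values was not tested.

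Of 11 death receptor and adaptor genes, Tnfrsf21 (death receptor 6) had the smallest p of all the cell death genes tested. It read 15.32, 15.07 and 15.08 in WT and 14.81, 14.56 and 14.63 in SOD1, a change of -0.49 ± 0.14 (limma adjusted p = 0.155), or -0.31 with median centring. All SOD1 arrays were below all WT arrays. Tnfrsf1a, the main TNF receptor, was at -0.52 ± 0.26 (-0.28 without SOD1 replicate 3) and Tnfrsf12a at -0.29 ± 0.23 (-0.05 without WT replicate 2). Cflar, which blocks caspase-8, was at 1.28 ± 0.57, or 0.63 without WT replicate 3.

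Among other BCL2 family genes, Bnip3, a mitophagy receptor of the outer mitochondrial membrane, read 15.80, 15.81 and 15.88 in WT and 16.03, 16.09 and 16.20 in SOD1 (0.28 ± 0.10, limma adjusted p = 0.239). Its size depended on the scaling, at 0.50 with median centring. Estimates were negative for 7 of the 11 genes of the list (median -0.42), among them the neuronal BH3-only gene Hrk (-1.08 ± 0.53), Bcl2l13 (-0.42 ± 0.21) and Bcl2l12 (-0.95 ± 0.60), with 0 of these at an unadjusted p under 0.05. Pmaip1 (NOXA) was at 0.64 ± 0.64.

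Upstream of the BH3-only genes, the lists were mixed. Foxo3, a factor known to drive Bcl2l11 and Bbc3, read 12.36, 12.18 and 12.88 in WT and 12.41, 12.60 and 12.47 in SOD1. Its change was 0.02 ± 0.24 (limma adjusted p = 0.977), and any link to the levels of Bcl2l11 or Bbc3 was not tested. Ddit3 (CHOP), a stress factor that induces Bcl2l11, read 11.85, 11.69 and 10.95 in WT and 11.88, 12.18 and 12.61 in SOD1 (0.73 ± 0.31, limma adjusted p = 0.312). Mapk8ip1, a scaffold of JNK, was at -1.03 ± 0.41, Map3k5 at 0.50 ± 0.26 and E2f1 at -0.45 ± 0.32.

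Of 15 genes of p53 and its targets, 1 was higher and 1 lower at an unadjusted p under 0.05. Those shares were 7.67% and 8.87% over all named genes. Zmat3 was at -0.60 ± 0.20 (limma adjusted p = 0.210) and Ccng1 at 0.42 ± 0.18 (limma adjusted p = 0.309). Tigar was at -0.43 ± 0.25. Cdkn1a (p21), a classical p53 target, was at 1.02 ± 0.62, or 0.36 without WT replicate 3. Trp53 itself was not tested. Of 24 partners and regulators of BCL2 proteins, Bag6 was at -1.01 ± 0.39 with SOD1 replicate 1 close to the WT arrays, Tmbim4 at 0.48 ± 0.20, Ywhae, a 14-3-3 protein of the family that binds BAD, at -0.32 ± 0.14 and Pim3 at -0.26 ± 0.12. With median centring Ywhae was at -0.12 and Pim3 at -0.04.

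**Figure D4:**
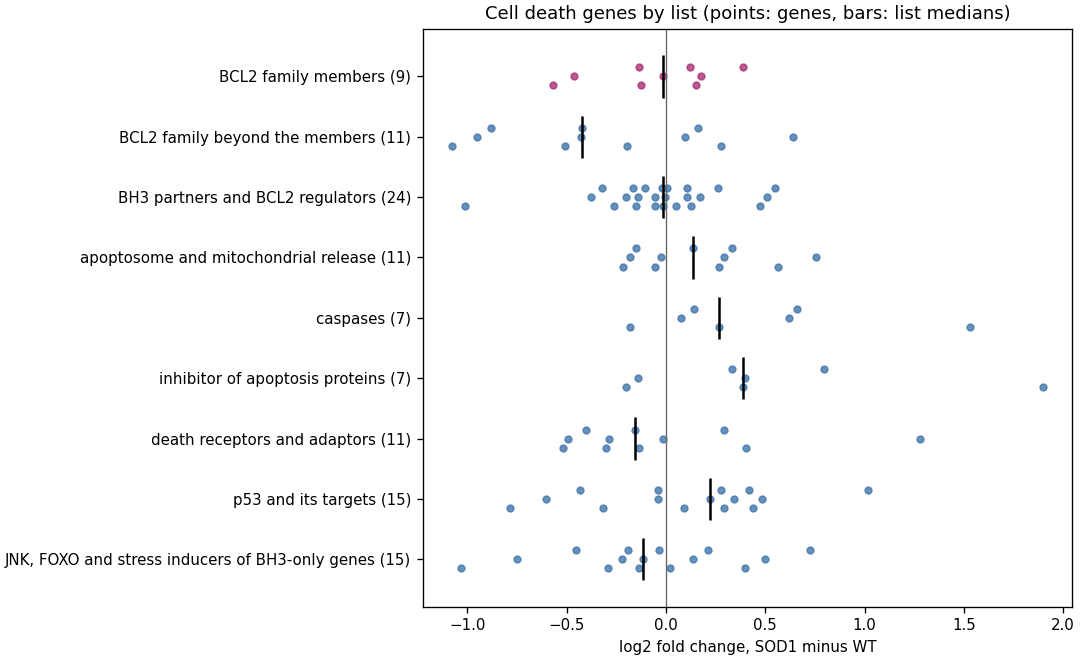
Change of each gene (x axis, log2 fold change, SOD1 minus WT; 1 point per gene, the probe set with the highest signal) in the 9 BCL2 family genes and in the 8 lists of other cell death genes, with the number of genes tested in brackets and a bar at each median. The 9 BCL2 family genes lie between -0.57 and 0.39, and no gene of any list passed the test.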

How the data were processed

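The authors deposited an intensity on a linear scale for each probe set of each array, made from RNA amplified in 2 T7-based rounds, per the labels. The algorithm and scanner settings are not named in the labels. The 2% trimmed mean was 2500.02 on every array, so the arrays had been scaled, and median signal was 267 to 315. Of 45101 probe sets, 64 controls were left out. Of the other 45037, 34945 had 1 gene symbol, 932 had several and 9160 were not listed. Symbols were checked through Entrez identifiers against RefSeq (GRCm38.p6), where 34741 matched and 0 changed.

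Arrays were quantile normalised, 16 was added, log2 was taken, and the 27022 probe sets above the 40th percentile were fitted with limma 3.58.1 in R 4.3.3 (lmFit, eBayes with trend, two-sided, Benjamini-Hochberg adjustment over all of them, threshold 0.05). Probe sets below the filter come from a fit of all 45037. Background was the 95th percentile of 27 controls for bacterial genes on each array, compared with the deposited signals, a choice made after the values were seen. The fit was tested on simulated data. Named are every probe set of the members above the filter and some of those below it. Of each list, the genes past the threshold and up to 4 with the smallest p are named. Casp9, Foxo3 and Pmaip1 fall outside that rule and were chosen after their values were seen. Members and lists were chosen with earlier results of these data known. The alternatives were other scalings, pseudocounts, filters, variance models, array weights, a replicate block, a term for Xist, other probe set choices, a threshold of 0.1 and each array left out. Figures were drawn with matplotlib 3.10.9.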

Additional observations from a re-analysis of the deposited data

How the results depend on the processing

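In the fit over all probe sets 50 were called. The count was 87 with a pseudocount of 64, 106 with a filter at the 60th percentile, 0 without a variance trend, 100 with array weights, 25 without probe sets whose names end in _x_at, _s_at or _a_at, 11 with probe sets averaged by gene and 190 at a threshold of 0.1. With the replicate number as a block it was 76. Same-numbered arrays did not deviate together (correlations of 0.03, -0.04 and -0.01). With 3 arrays per group this cannot show that the arrays were unpaired. Leaving out 1 array gave 0 to 75 calls, with 9 without WT replicate 1, 0 without WT replicate 2, 6 without SOD1 replicate 2 and 29 without SOD1 replicate 3. Without a variance trend 12% of probe sets had an unadjusted p under 0.05, and without WT replicate 2, where the count was also 0, 9.84% had. In each of the 20 alternatives 0 BCL2 family probe sets and 0 of the other cell death genes were called. The unadjusted count for the BCL2 family was 0 to 3 across them. Among the estimates of single probe sets, 343 moved by less than the spread between replicates and 3 by more, Bcl2 1437122_at (-1.81) and Bcl2l11 1456005_a_at (-1.49) with a term for Xist and Mcl1 1456243_x_at (0.15) with median centring. The median over all probe sets kept was -0.06 with no further scaling and 0.04 with median centring, and the same 2 estimates, of Mcl1 1437527_x_at and 1456243_x_at, turned sign in both. With 3 arrays per group, intervals of some low probe sets reach several-fold, so a change of that size is not excluded for those. Of the 32 other cell death genes followed across settings, none of them called, 20 moved by over 1.5 times in at least 1 fit with an array left out, and Casp6 turned sign.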
